A study of Papio anubis with 40 samples.

Results

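Plasma assays of microRNAs need an internal standard, and 8 mature microRNAs that are often put forward for that purpose were followed here in baboon plasma: miR-423-5p, miR-423-3p, miR-484, miR-103a-3p/miR-107, miR-361-5p, miR-361-3p, miR-345-5p and miR-328-3p. They were picked by name as reference candidates, with earlier results of these data known. They make up 8 of the 2731 rows of the table. Of these, 7 passed the filter on low counts, as did 318 rows in all. miR-345-5p had no count in any library. A microRNA is a short RNA cut from the arm of a hairpin and loaded into an Argonaute protein, where it guides the repression of messenger RNAs. In plasma, microRNAs travel in vesicles or bound to Argonaute and lipoproteins, and many of them come from blood cells, so lysis of red cells or activation of platelets shifts their levels. A reference microRNA is useful only where it stays level over time, between animals and with the quality of the sample. A level in plasma does not tell the number of cells that release a microRNA from the amount that each cell releases.

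The animals were 8 olive baboons (Papio anubis), sampled 5 times each, with 0.5 mL of plasma per sample by the labels, although the series text calls the material serum. Month 0 was before endometriosis was induced by laparoscopic inoculation of the abdominal cavity with menstrual tissue. Months 3, 6, 9 and 15 came after that inoculation, so there were 8 libraries at each month and 40 in all. No strain, age or sex is given, the labels call every sample untreated, and every animal was inoculated, so the effects of inoculation, ageing and storage cannot be told apart. Repeat libraries of a month are different animals, and the library numbers follow the order of the animals.

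The depth of the libraries was between 696873 and 5824111 counts (median 1629264.5). Marker microRNAs of blood cells and liver were looked up in the libraries. This cannot tell plasma from serum, since such markers can be counted in either. The 5 red cell markers held 5.15 to 48.6% of the counts of a library (median 31.5%), the 5 platelet markers 2.16 to 20.0% (median 9.11%) and the 4 liver markers 0.313 to 78.7% (median 4.90%). Few rows set these sums. By mean CPM they were miR-16-5p (211519) and miR-486-5p (99498) for red cells, where miR-451a had 1545. For platelets they were miR-126-3p (60511) and miR-191-5p (26486), and for liver miR-122-5p (176733). The sums therefore do not measure what each cell type gave. Every one of these markers was counted, although miR-144-5p was at 0 in 34 libraries and miR-885-5p in 4. The 7 reference microRNAs with counts together held 0.696 to 2.85% of the counts of a library (median 1.79%).

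The reference microRNAs differed widely in level. Levels are given in CPM, the usual depth-scaled count, with library factors from the trimmed mean of M-values (TMM), and the sequences are of similar length. miR-423-5p was the most abundant, with a lowest level of 2554, a median of 13359 and a highest level of 36846 CPM over the 40 libraries. miR-103a-3p/miR-107 followed with 1026, 1732 and 3522 CPM, and miR-361-5p with 525, 1034 and 1649 CPM. These 3 were counted at least 636 times in each library. miR-484 ran from 78.4 to 867 CPM with a median of 333 CPM, and miR-423-3p from 87.2 to 379 CPM with a median of 136 CPM. The last 2 were scarce, with medians of 23.6 CPM for miR-328-3p (0 to 60.1 CPM) and 5.88 CPM for miR-361-3p (0 to 21.3 CPM). The order held in nearly every library: miR-423-5p exceeded miR-103a-3p/miR-107 in 39 of 40 libraries, miR-103a-3p/miR-107 exceeded miR-361-5p in 37, miR-361-5p exceeded miR-484 in 40, miR-484 exceeded miR-423-3p in 35, miR-423-3p exceeded miR-328-3p in 40 and miR-328-3p exceeded miR-361-3p in 39.

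miR-345-5p, which has been put forward as a reference for human plasma, had 0 counts in all 40 libraries, as did the other arm of its hairpin. At 0 counts a library still allows a level of 3 counts, or 0.374 to 3.97 CPM depending on its depth, and 0 of the 76149112 counts of all libraries allows up to 0.0394 CPM without TMM scaling. Such floors cover counting error only. Of the 2731 rows, 2042 were at 0 in every library, and what set these rows to 0 was not tested. miR-345-5p could therefore not be compared between months or animals.

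**Figure D1:**
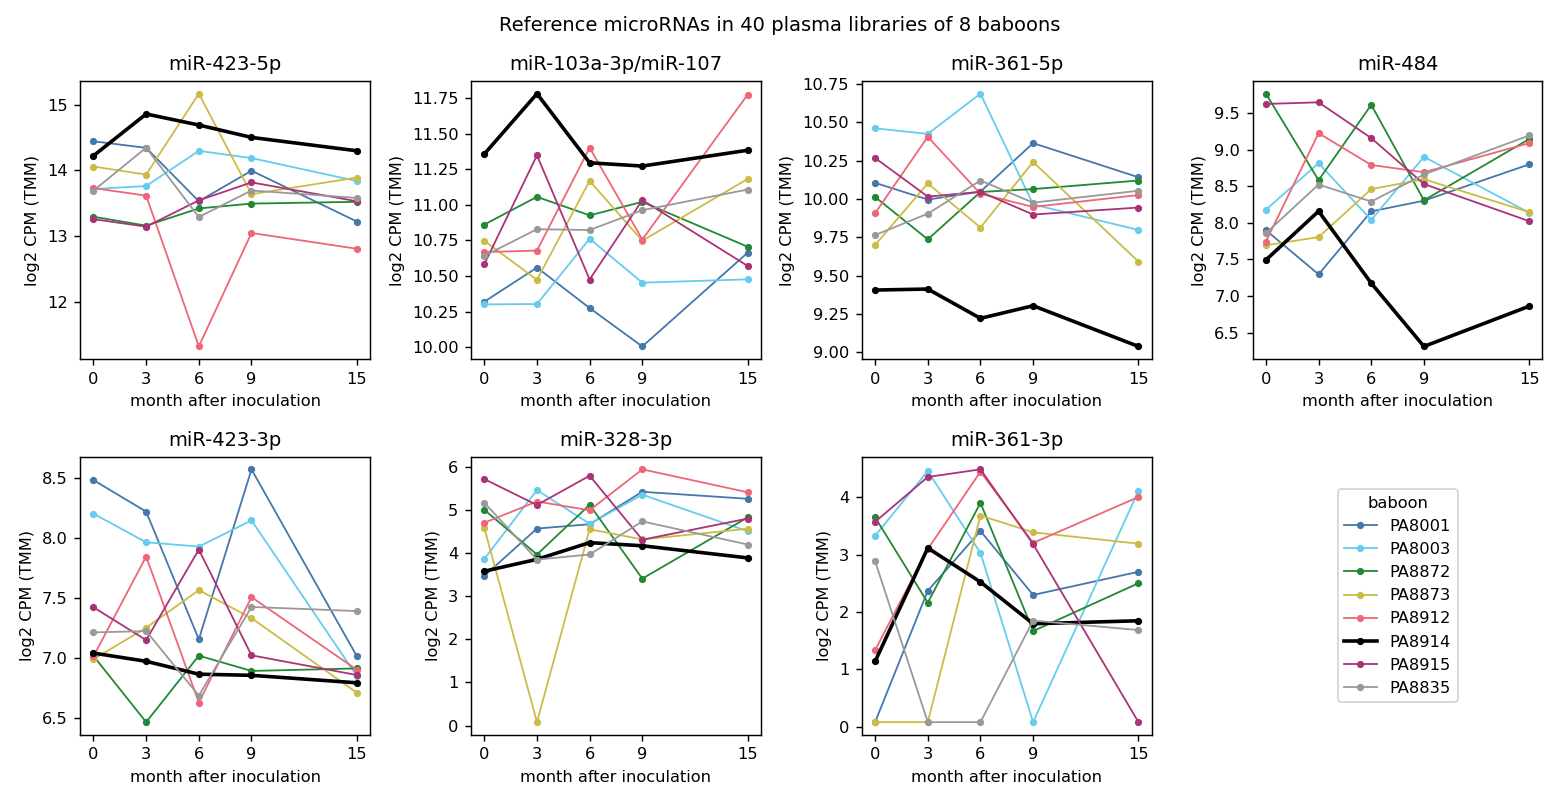
Level of each of the 7 counted reference microRNAs (log2 CPM with TMM scaling, prior count 2, a separate y axis for each panel) against month after inoculation, with one line per baboon. The thick black line of PA8914 lies below every other animal for miR-361-5p and at or near the top for miR-103a-3p/miR-107 and miR-423-5p.

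miR-423-5p and miR-423-3p are the 2 arms of a hairpin that in human lies in an intron of NSRP1, a splicing regulator. miR-423-5p had a lowest, median and highest level of 9794, 13528 and 22288 CPM at month 0, and of 7167, 12046 and 20161 CPM at month 15. Between these it had 9049.8, 14789 and 29737 CPM at month 3, 2554, 11889 and 36846 CPM at month 6, and 8464, 13847 and 23217 CPM at month 9. The groups overlapped at every month, and month 6 was the widest, with the lowest value in PA8912 and the highest in PA8873. At month 15 the log2 fold change against month 0 was -0.24 (SE 0.245, 95% interval -0.74 to 0.26, edgeR adjusted p = 0.697), with 4 animals higher and 4 lower.

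miR-423-3p showed the lowest unadjusted p of the reference microRNAs at month 15. It had a lowest, median and highest level of 126, 139 and 356 CPM at month 0, 87.2, 150 and 297 CPM at month 3, 97.7, 135 and 242 CPM at month 6, 115, 165 and 379 CPM at month 9, and 104, 117 and 167 CPM at month 15. The ranges overlapped, and the high values of months 0, 3 and 9 were those of PA8001, which had 356 CPM at month 0 and 128 CPM at month 15. Its log2 fold change at month 15 was -0.46 (SE 0.212, 95% interval -0.89 to -0.033), lower in 7 of 8 baboons. Its unadjusted p was 0.0356 and its adjusted p 0.349 in edgeR, so it did not pass the threshold of 0.05.

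miR-484 is known from rodent heart muscle cells for repressing FIS1, a protein of mitochondrial fission. It had a lowest, median and highest level of 179, 234 and 867 CPM at month 0, 156, 374 and 799 CPM at month 3, 143, 331 and 780 CPM at month 6, 78.4, 377 and 477 CPM at month 9, and 115, 363 and 584 CPM at month 15. Every month overlapped every other, and PA8914 gave the lowest value at 4 of the 5 months. The month 15 fold change was 0.14 on the log2 scale (SE 0.293, 95% interval -0.45 to 0.74, edgeR adjusted p = 0.887).

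The row miR-103a-3p/miR-107 joins microRNAs that differ by a single base near the end, that in human lie in introns of the pantothenate kinase genes, and that act on insulin sensitivity in mouse. The counts of a joined row cannot be divided between its members. It had a lowest, median and highest level of 1260, 1611 and 2623 CPM at month 0, 1262, 1728 and 3522 CPM at month 3, 1237, 1878 and 2706 CPM at month 6, 1026, 1862 and 2474 CPM at month 9, and 1423, 1938 and 3507 CPM at month 15. The ranges overlapped at all months. At month 15 the log2 fold change was 0.32 (SE 0.160, 95% interval -0.0013 to 0.65, edgeR adjusted p = 0.376), with 6 of 8 animals higher. Its largest rise was in PA8912, from 1626 to 3507 CPM.

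miR-361-5p and miR-361-3p are the arms of a hairpin that in human lies in an intron of CHM, the choroideremia gene. miR-361-5p had a lowest, median and highest level of 678, 997 and 1409 CPM at month 0, 681, 1028 and 1374 CPM at month 3, 596, 1057 and 1649 CPM at month 6, 631, 1003 and 1318 CPM at month 9, and 525, 1014 and 1129 CPM at month 15. The medians of the 5 months lay between 997 and 1057 CPM, and PA8914 was the lowest animal at every month. At month 15 its log2 fold change was -0.11 (SE 0.134, 95% interval -0.38 to 0.16, edgeR adjusted p = 0.770), higher in 4 animals and lower in 4. Over the 4 months its 95% intervals reached from -0.38 to 0.32, and they were the narrowest of the 7 at each month.

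The other arm, miR-361-3p, was near the limit of detection. Its medians were 3.90, 5.80, 10.7, 3.20 and 5.02 CPM at months 0, 3, 6, 9 and 15, and its highest levels 11.5, 20.9, 21.3, 9.40 and 16.2 CPM. It was at 0 in 7 libraries, which had total counts of 696873 to 1146946 and in which a count of 0 allows 2.64 to 3.97 CPM. Its log2 fold change at month 15 was 0.34 with a 95% interval of -1.37 to 2.06 in edgeR, an interval that holds changes of several fold either way.

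miR-328-3p, which in human leukaemia cells binds hnRNP E2 as a decoy besides repressing messages, had medians of 23.9, 18.6, 24.4, 22.1 and 24.6 CPM at months 0, 3, 6, 9 and 15. Its highest levels were 51.3, 42.8, 54.2, 60.1 and 41.3 CPM, and its lowest 10.0, 0, 14.5, 9.53 and 13.7 CPM. The months overlapped, and the single 0 was the month 3 library of PA8873, with a total count of 816489, in which a count of 0 allows 3.19 CPM. The month 15 fold change was 0.046 on the log2 scale (SE 0.412, 95% interval -0.79 to 0.88, adjusted p = 0.983 in edgeR).

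**Figure D2:**
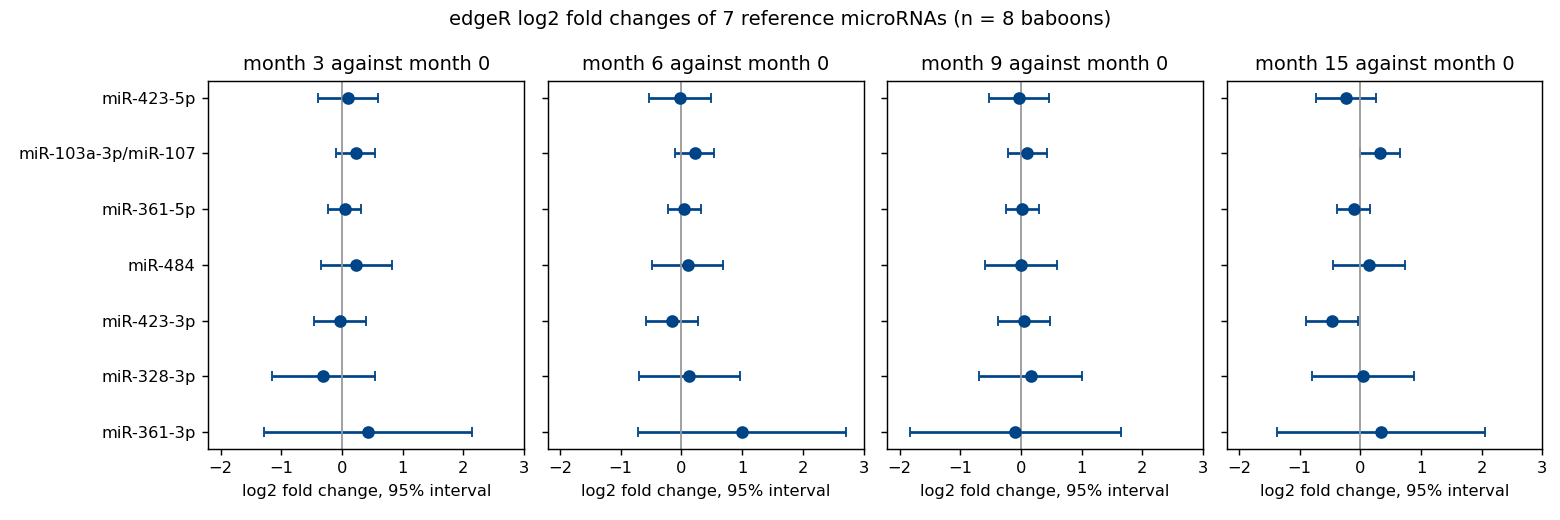
Log2 fold change of each counted reference microRNA at months 3, 6, 9 and 15 against month 0 from the edgeR fit of 40 libraries with month and baboon as terms (points) with 95% intervals (bars). Every interval holds 0 except that of miR-423-3p at month 15, and the intervals are narrowest for miR-361-5p and widest for miR-361-3p.

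None of the 7 passed the threshold at any month. By edgeR, 0 of 7 were called at month 3, where 0% of the 318 rows tested were called, 0 at month 6 (0% of rows), 0 at month 9 (0% of rows) and 0 at month 15, where 4.09% of rows were called. With the 4 months tested together 0 of 7 were called against 0.943% of rows, and 0 of 7 between months 9 and 15 and months 3 and 6 (0% of rows). At these backgrounds a count of 0 among 7 is close to that of rows at large. At an unadjusted p under 0.05 edgeR had 1 of the 7 at month 15 (miR-423-3p) against 40 of all rows, and 0 of the 7 at months 3, 6 and 9, in the joint test and between late and early months, against 5, 11, 11, 29 and 16 rows. DESeq2 and limma-voom also called 0 of the 7 in each of these tests. Of 318 rows they called 18 and 13 at month 15, and 7 and 3 with the months tested together. DESeq2 called 1 row at each of months 3, 6 and 9 and 2 between late and early months, where limma-voom called 0. These backgrounds too leave 0 among 7 close to rows at large. At month 15 miR-423-3p had an unadjusted p of 0.0148 in DESeq2 and 0.0203 in limma-voom. The median log2 fold change at month 15 was 0.046 over the 7 and 0.11 over all rows tested. Over 23 alternatives of scaling, filter, tool, covariate and samples, the month 15 fold change kept its sign for miR-423-5p, miR-423-3p, miR-103a-3p/miR-107 and miR-361-5p, and turned in 7 of them for miR-484, 13 for miR-328-3p and 2 for miR-361-3p.

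A measure without any library scaling was also used. Each reference microRNA was set against the mean log2 count of the other 6 in the same library, and months were compared with month 0 by an exact sign-flip permutation test over the 8 baboons. A prior count of 2 was added to each count. The measure therefore rests partly on the prior count, and on depth, in the 7 libraries without miR-361-3p, 1 of which also lacked miR-328-3p. Of the 28 tests 0 passed the threshold after adjustment, and 1 had an unadjusted p under 0.05. That was miR-103a-3p/miR-107 at month 15, higher against the other 6 in 8 of 8 baboons by 0.35 ± 0.30 on the log2 scale (SD, n = 8), with an exact p of 0.0078, the smallest that 8 animals allow, and an adjusted p of 0.219.

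Steadiness within an animal separated the 7 more than the month tests did. It was measured as the SD of log2 CPM over the 5 months in each baboon, then averaged over the 8 baboons. miR-361-5p had 0.196 ± 0.084 (SD, n = 8), the lowest of the 318 rows tested, and miR-103a-3p/miR-107 had 0.269 ± 0.122, the tenth lowest of the 133 rows with a mean of at least 100 CPM. miR-423-3p had 0.394 ± 0.203 and ranked 42 of 133, miR-423-5p had 0.427 ± 0.263 and ranked 52, and miR-484 had 0.557 ± 0.119 and ranked 90. The median over the 133 rows was 0.479, so miR-484, a frequent reference, lay on the less steady side of these rows. The scarce members had 0.757 ± 0.520 for miR-328-3p and 1.34 ± 0.402 for miR-361-3p, where the SD that counting alone gives was 0.347 and 0.772. For miR-361-5p and miR-423-5p counting alone gives 0.038 and 0.010. This estimate is rough: it takes counts as independent molecules, raises an absent count to a single count and leaves out the prior count. In single animals miR-361-5p ran from an SD of 0.138 in PA8835 to 0.371 in PA8003.

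**Figure D3:**
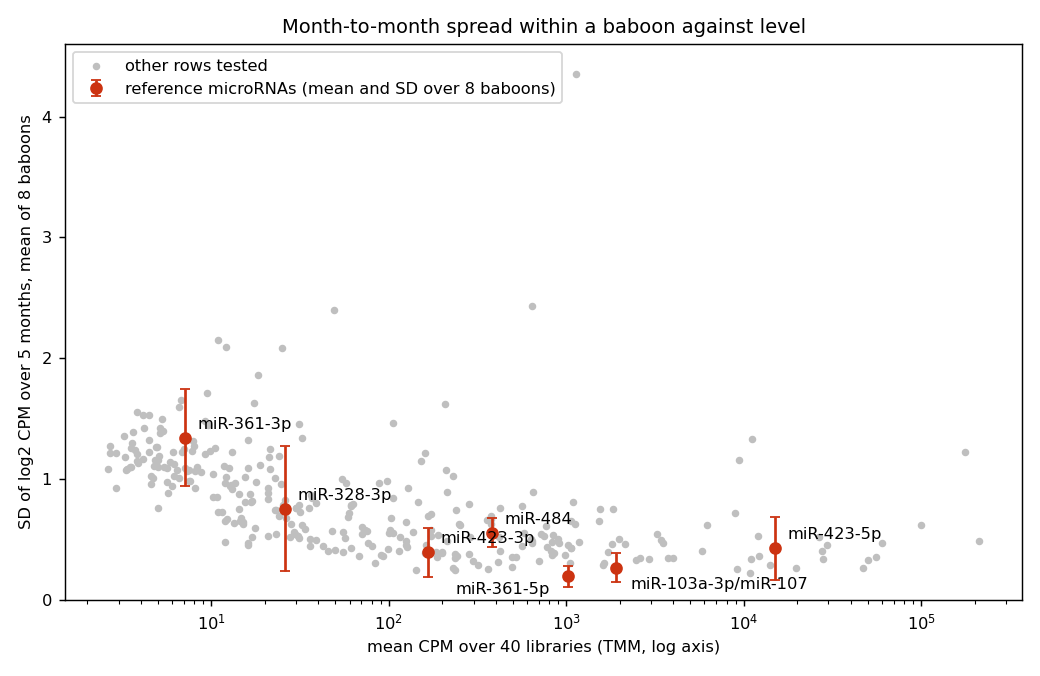
Month-to-month spread within a baboon (SD of log2 CPM over 5 months, mean of 8 baboons, y axis) against mean level (CPM over 40 libraries, log x axis) for the 318 rows tested. Red points are the reference microRNAs with the SD over 8 baboons as bars, and miR-361-5p is the lowest point of all at 0.196.

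The difference in steadiness was tested between the 21 pairs of the 7 with an exact sign-flip permutation test over the 8 baboons, adjusted over the pairs. Only values with TMM scaling were tested, so these p-values hold for that scaling. miR-361-5p was steadier than miR-484 in 8 of 8 baboons (mean difference 0.36 ± 0.19, adjusted p = 0.0205), than miR-423-5p in 7 of 8 (0.23 ± 0.27, adjusted p = 0.0379) and than miR-423-3p in 7 of 8 (0.20 ± 0.20, adjusted p = 0.0298). Against miR-103a-3p/miR-107 the difference of 0.073 ± 0.150 did not pass (exact p = 0.211, adjusted p = 0.246, miR-361-5p steadier in 6 of 8). miR-103a-3p/miR-107 was steadier than miR-484 in 8 of 8 baboons (adjusted p = 0.0205), while its differences from miR-423-5p (adjusted p = 0.0820) and miR-423-3p (adjusted p = 0.144) did not pass. Pairs with miR-361-3p are not read, since 7 libraries had no count of it. The rough SD that counting alone gives it, 0.772, was also near or above the SD within a baboon of each of the other 6.

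The scaling set part of this ranking. miR-361-5p ranked 1 of 133 with TMM, 1 with the size factors of DESeq2 and 2 with upper-quartile factors, but 11 with library totals alone, where its SD was 0.334. With library totals the SD was 0.304 for miR-103a-3p/miR-107, 0.411 for miR-423-5p, 0.415 for miR-423-3p and 0.575 for miR-484. miR-103a-3p/miR-107 ranked 10, 4, 11 and 4 under these scalings, and miR-484 ranked 90, 87, 93 and 74. A further measure without scaling was the mean SD, over the 40 libraries, of the log2 count ratio to each of the other 132 rows, chosen after the data had been seen. By it miR-361-5p (0.842, rank 14 of 133) and miR-103a-3p/miR-107 (0.844, rank 15) were close to each other, followed by miR-423-3p (0.960, rank 62), miR-423-5p (1.02, rank 76) and miR-484 (1.09, rank 93), against a lowest value of 0.803 for miR-128-3p.

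Animals differed in level for most of the counted members. By the edgeR test of the baboon term, 5 of 7 were called, where 32.4% of rows were called: miR-361-5p (adjusted p = 0.00201), miR-103a-3p/miR-107 (0.00259), miR-484 (0.00385), miR-423-3p (0.00630) and miR-423-5p (0.00637). miR-328-3p (0.201) and miR-361-3p (0.492) did not pass. These calls rested largely on 1 animal, since without PA8914 only miR-423-3p was called, with 50 rows called in all. With miR-122-5p as a covariate 2 of the members were called, where 77 of 318 rows were called. With no filter on low counts 2 were called as well, where 118 of 689 rows were called.

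PA8914 was singled out after its values had been seen, and what follows about it is a description without a test. Its 5 libraries had 678, 681, 596, 631 and 525 CPM of miR-361-5p at months 0, 3, 6, 9 and 15, all below each of the 35 libraries of the other 7 animals, whose lowest value was 771 CPM. On the log2 scale the mean of PA8914 was lower by 0.77, or 1.71-fold. miR-484 was 2.57-fold lower in PA8914 (78.4 to 285 CPM), whereas miR-423-5p was 1.84-fold higher (19134 to 29737 CPM) and miR-103a-3p/miR-107 1.58-fold higher (2474 to 3522 CPM). The 5 libraries of miR-361-5p lay below all 35 others with DESeq2 and upper-quartile factors too. With library totals alone the gaps of the lower members widened, to 2.55-fold for miR-361-5p, with 34 of the 35 other libraries above all 5, and to 3.82-fold for miR-484. The difference of miR-103a-3p/miR-107 then shrank from 0.66 to 0.080 on the log2 scale, and that of miR-423-5p from 0.88 to 0.30. PA8914 had TMM factors of 0.627 to 0.776, against 0.358 to 1.42 in the other 7 animals. Red cell markers took 37.4 to 42.1% of its counts, inside the 5.15 to 48.6% of the other 7 animals. The median over all libraries was 31.5%. The part of these in the levels of PA8914 was not tested. Without PA8914 the SD of miR-361-5p over libraries fell from 0.340 to 0.229, and the SD of its animal means from 0.296 to 0.123.

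Ratios of reference microRNAs within a library cancel any scaling. With a prior count of 2 added to each arm, the ratio of miR-423-5p to miR-423-3p had a median of 83.8-fold and ran from 26.1-fold to 238-fold, so the proportion of these products of 1 hairpin was not fixed across libraries. It was 145-fold to 238-fold in PA8914 and 26.1-fold to 105-fold in PA8912. The count ratio of miR-361-5p to miR-361-3p had a lowest value of 49.6-fold and a median of 129-fold over the 33 libraries with a count of the 3p arm. The other 7 libraries had no count of it, which allows ratios of at least 218-fold to at least 378-fold with a floor of 3 counts per library. Of 8 comparisons of these ratios with month 0, 0 passed and 0 had an unadjusted p under 0.05 in the exact sign-flip permutation test over 8 baboons (smallest adjusted p = 0.950), where the miR-361 ratios of those 7 libraries rest on the prior count. For miR-423 at month 15 the difference was 0.28 ± 0.68 on the log2 scale (SD, n = 8, exact p = 0.289). The 2 steadiest members parted by animal: the ratio of miR-103a-3p/miR-107 to miR-361-5p was 3.87-fold to 5.17-fold in PA8914 and 0.779-fold to 3.36-fold in the other 35 libraries, with no overlap.

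**Figure D4:**
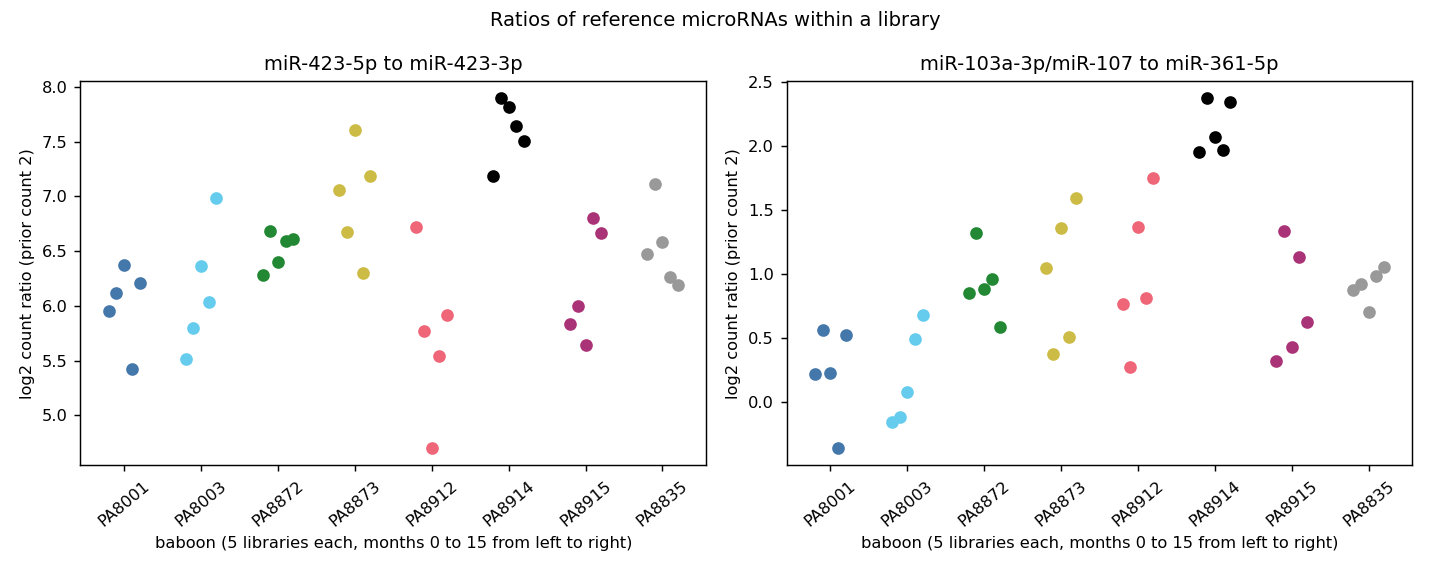
Log2 count ratio of miR-423-5p to miR-423-3p (left) and of miR-103a-3p/miR-107 to miR-361-5p (right) in each library, grouped by baboon with months 0 to 15 from left to right. The black points of PA8914 have the highest median in both panels, with values of 145-fold to 238-fold on the left and 3.87-fold to 5.17-fold on the right.

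Sample quality is the usual concern with plasma references, so the members were regressed on 3 properties of the library, with month and baboon in the same edgeR fit. The first was a haemolysis index, the log2 CPM of the red cell microRNA miR-451a minus that of the joined row of miR-23a-3p and miR-23b-3p, which ran from -3.43 to 1.49. By edgeR 0 of 7 were called, where 9.12% of rows were called. Of the 7, 0 had an unadjusted p under 0.05, against 61 of 318 rows. DESeq2 and limma-voom also called 0 of 7, where 39 and 27 of 318 rows were called. With them 0 of 7 had an unadjusted p under 0.05, against 72 and 70 rows. At these shares of rows called, 0 among 7 is close to rows at large. The smallest p was that of miR-103a-3p/miR-107, with a slope of 0.10 log2 per unit of index (SE 0.065, 95% interval -0.028 to 0.24, adjusted p = 0.423), and that of miR-361-5p was -0.039 (SE 0.053, 95% interval -0.15 to 0.069). Among other microRNAs used as references, miR-16-5p, abundant in red cells, had a slope of 0.41 (adjusted p = 0.00270) and miR-93-5p one of 0.29 (adjusted p = 0.000919).

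The second property was the depth of the library. miR-484 rose with the log2 total count, by 0.47 log2 per doubling (SE 0.147, 95% interval 0.17 to 0.77, edgeR adjusted p = 0.0435), and was the 1 member of 7 called, where 7.55% of rows were called. miR-361-3p (slope 1.20, adjusted p = 0.0858) and miR-103a-3p/miR-107 (0.21, adjusted p = 0.0963) had unadjusted p under 0.05 and did not pass after adjustment. In edgeR 3 of the 7 had an unadjusted p under 0.05, against 92 of 318 rows. miR-361-5p had a slope of 0.0035 (95% interval -0.15 to 0.16) with TMM. With the 7 members as the scaler, miR-361-5p among them, its slope was -0.27 (SE 0.095, edgeR adjusted p = 0.0448). miR-361-5p was then the 1 member called, while miR-484 was not (0.20, adjusted p = 0.268). Each member helps to make this scaler, so the slopes of members under it are tied to each other. Under that scaler 61 of 318 rows were called, 55 of them lower. The median slope of all rows was then -0.22, so that of miR-361-5p was close to the shift of rows at large. The call of miR-484 was not stable: 0 members were called with DESeq2 size factors, with library totals alone, without the month 6 library of PA8912, or without any 1 of PA8003, PA8872, PA8873, PA8914, PA8915 and PA8835, while limma-voom called 3. Rows called were 24 of 318 with DESeq2 size factors, 36 of 318 with library totals alone and 75 of 318 with limma-voom. They were 6 of 326 without that library, and between 9 of 320 and 27 of 323 without 1 of those animals. Without the baboon as a block miR-103a-3p/miR-107 was called (0.30, edgeR adjusted p = 0.0207) and miR-484 was not (0.18, adjusted p = 0.587), where 27 of 318 rows were called. The third property was the log2 CPM of the liver microRNA miR-122-5p. By edgeR 0 of 7 were called with it, where 4.09% of rows were called. The slopes of miR-103a-3p/miR-107 (-0.095, edgeR unadjusted p = 0.0441, adjusted p = 0.266) and miR-423-3p (0.13, unadjusted p = 0.0498, adjusted p = 0.272) were the 2 with an unadjusted p under 0.05. Of all 318 rows 58 were under it. DESeq2 and limma-voom called 0 members as well, where 18 and 20 of 318 rows were called. With them 1 and 2 members had an unadjusted p under 0.05, against 54 and 76 rows.

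A list of 24 other microRNAs used as references was set beside the 8. All 24 were in the table and 23 were tested. At month 15, 2 of 23 rose, miR-30e-5p (log2 fold change 0.98, adjusted p = 0.00715) and miR-126-3p of endothelium and platelets (0.72, adjusted p = 0.0448), and 0 fell by edgeR, where 4.09% of all rows were called. By the baboon term 10 were called (32.4% of all rows), and 4 rose with the haemolysis index (9.12% of all rows called in either direction), 1 of them being miR-451a, which is part of that index, and the others miR-16-5p, miR-93-5p and miR-15b-5p. The median SD within a baboon over the 23 was 0.434, against 0.427 over the 7. The lowest of the list were miR-185-5p (0.222), let-7i-5p (0.263), let-7g-5p (0.265), miR-186-5p (0.266), the joined row of miR-320a-3p (0.290) and the joined row of let-7a-5p (0.328). miR-16-5p, widely used in plasma, had 0.492 and ranked 70 of 133.

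Over all 40 libraries, animals and months together, the rows with the smallest SD of log2 CPM among those of at least 100 CPM were miR-628-3p (0.273), miR-128-3p (0.310), miR-186-5p (0.324), miR-425-3p (0.328) and miR-185-5p (0.332). miR-361-5p ranked 8 at 0.340 and miR-103a-3p/miR-107 ranked 20 at 0.410. miR-423-3p ranked 53 at 0.535, miR-423-5p ranked 72 at 0.651 with a 14.4-fold range, which was 5.14-fold without the month 6 library of PA8912, and miR-484 ranked 94 at 0.767 with a 10.9-fold range.

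The rows most like each member were found by the SD of their log2 count ratio to it over the 40 libraries, which share depth and baboon and carry no test. miR-103a-3p/miR-107 had the closest match of all 7, let-7i-5p with an SD of 0.196, followed by miR-98-5p (0.307) and let-7d-5p (0.313). miR-361-5p was nearest to miR-532-5p (0.297), miR-21-5p (0.342) and miR-186-5p (0.356). miR-423-5p was nearest to miR-877-5p (0.403), the joined row of miR-320a-3p (0.438) and miR-574-5p (0.468), and its own other arm, at 0.705, was not among them. miR-423-3p was nearest to the joined row of miR-320a-3p (0.421), miR-361-5p (0.450) and miR-664a-5p (0.514). miR-484 was nearest to miR-92a-3p (0.445), ahead of miR-361-5p (0.639) and miR-186-5p (0.645). For the scarce members the closest rows were far off, miR-574-3p at 0.724, miR-532-5p at 0.732 and miR-92a-3p at 0.736 for miR-328-3p, and miR-221-3p at 0.918, miR-140-3p at 0.924 and miR-150-5p at 0.935 for miR-361-3p.

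The members were then used as scalers in place of TMM. The geometric mean of the 7 differed from the TMM factor by an SD of 0.32 on the log2 scale over the 40 libraries, from -0.82 in the month 3 library of PA8873 to 0.56. The mean of the 4 abundant members, miR-423-5p, miR-484, miR-103a-3p/miR-107 and miR-361-5p, stayed closer, with an SD of 0.20 and a range of -0.39 to 0.42. Single members strayed further, but for a single member this difference is its own log2 CPM about its mean, apart from the prior count. The SDs of single members therefore restate their SDs over all libraries given above. Whether means of other rows come as close to TMM was not tested. miR-361-5p alone had an SD of 0.34, miR-103a-3p/miR-107 of 0.41, miR-423-3p of 0.54, miR-423-5p of 0.65 and miR-484 of 0.77. miR-423-5p would have set the month 6 library of PA8912 by -2.43 and miR-484 the month 9 library of PA8914 by -2.08. miR-328-3p had no count in 1 library and miR-361-3p in 7, so they give no measured factor there. The mean of the 7 members rests partly on the prior count in those libraries. In the month 3 library of PA8873, where both were at 0, it differed by -0.82 and the mean of the 4 abundant members by -0.15.

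**Figure D5:**
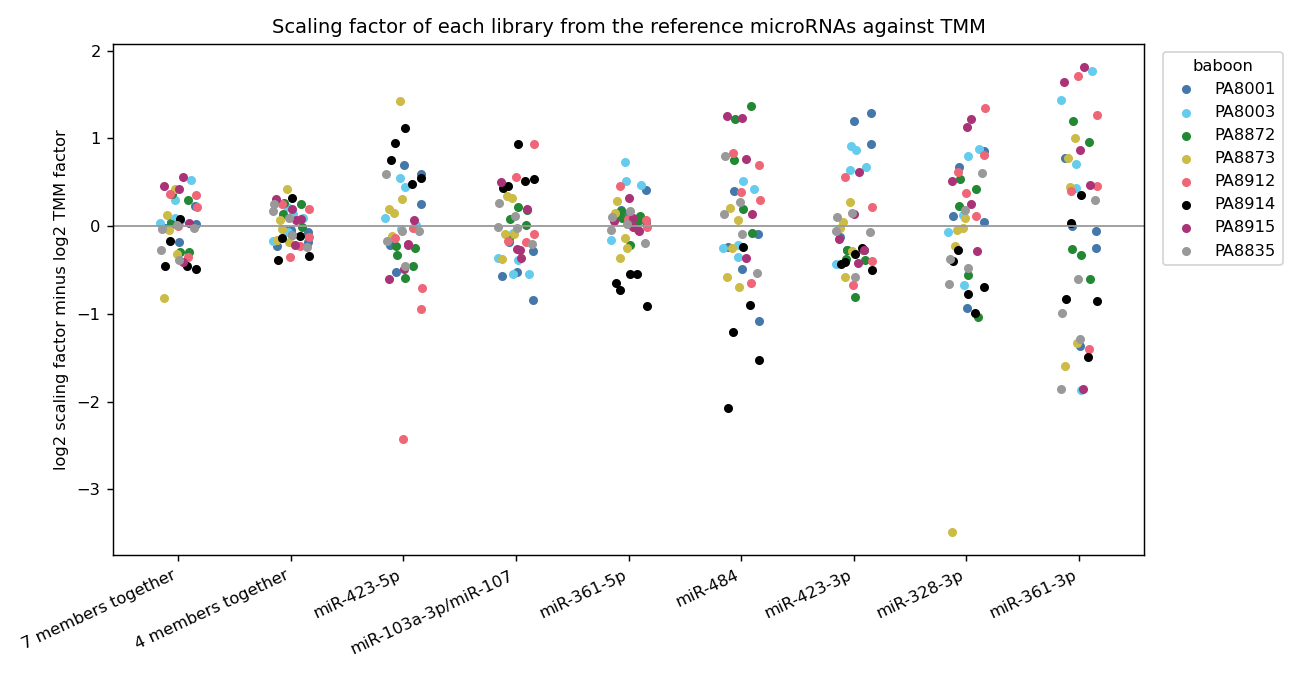
Difference between the log2 scaling factor of each library from the reference microRNAs and its log2 TMM factor (y axis) for the 7 counted members together, the 4 abundant ones together and each member alone, with points coloured by baboon. The points lie between -0.39 and 0.42 for the 4 together and spread to -2.43 for miR-423-5p, and the lowest point of miR-328-3p and 7 points of miR-361-3p are libraries without a count, placed by the prior count. In these 7 libraries the points of the 7 together also rest partly on the prior count.

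The choice of scaler changed how many microRNAs passed at month 15. With TMM 13 rows were called, 8 higher and 5 lower. With the 7 members only miR-210-3p was called, which is 0.314% of rows, and it was higher by 1.28 on the log2 scale (SE 0.257, adjusted p = 0.00577). The next smallest p were those of miR-34c-5p (-4.00, adjusted p = 0.0538), miR-30e-5p (0.94, 0.0679), miR-331-3p (1.40, 0.161) and miR-4676-5p (1.11, 0.161), none of which passed. In 7 libraries the scaler of 7 members rests partly on the prior count. The part of this in the smaller number of calls was not tested. With the 4 abundant members miR-210-3p, miR-30e-5p, miR-34c-5p and miR-1307-3p were called, all 4 of them among the 13 of TMM. miR-361-5p alone gave 13 calls, 10 higher and 3 lower, of which 11 were shared with the 13 of TMM. miR-103a-3p/miR-107 alone gave 6, 1 higher and 5 lower, of which 5 were shared. miR-423-3p alone gave 18, 17 higher and 1 lower, of which 9 were shared, and it moved the median log2 fold change of all rows at month 15 from 0.11 to 0.64. miR-423-5p, miR-484, miR-361-3p and miR-328-3p, each alone, gave 0 calls in edgeR. The rows at an unadjusted p under 0.05 then numbered 25, 18, 4 and 12, against 40 with TMM. At months 3, 6 and 9 scaling by the 7 members called 0 rows (0% of rows each).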

How the data were processed

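Small RNA from 40 plasma samples was sequenced. Per the labels' protocols, total RNA was isolated with a MagMAX kit, adapters were ligated to both ends of the microRNAs, unique molecular identifiers (UMIs) were added at cDNA synthesis and sequencing was on an Illumina NovaSeq X. The authors deposited whole-number counts per mature microRNA name and library, not normalized. R 4.5.0, edgeR and limma are named per the submitters' processing notes. For the aligner, the microRNA database and the choice between UMI and read counting, the answer is not given in the sources used here, so counts cannot be taken as independent molecules.

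Groups, months and animals came from the labels. The members were matched by row name with the species prefix removed. Rows were filtered with filterByExpr of edgeR 4.0.16 (minimum count 10, minimum total count 15, grouped by month), scaled with TMM and compared by quasi-likelihood F tests in a fit of all 40 libraries with month and baboon as terms. The block is the baboon, since each animal was bled at every month. Deviations of libraries from their month mean had a mean correlation, across rows, of 0.208 within a baboon and -0.051 between baboons, and 0 of the 780 pairs of libraries were identical. P-values are two-sided, adjusted by Benjamini-Hochberg over 318 rows. The threshold was 0.05. Steadiness used log2 CPM with a prior count of 2. Paired comparisons of single values used exact sign-flip permutation tests over the 8 baboons. Since miR-345-5p was at 0 throughout, pairs and ratios were taken over 7 members, which makes 21 pairs in place of the 28 of 8 members. Alternatives used DESeq2 1.42.0 and limma 3.58.1 in R 4.3.3. The fits were tested on simulated data.

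Named besides the members are the 3 rows nearest to each, the 5 rows with the smallest SD at 100 CPM or more, the steadiest 6 of the list of other references with miR-16-5p, the rows behind the covariates, and the 5 rows with the smallest p under scaling by the members. Some of the cell type markers are named too. Rows called on the list at month 15 or with the index, and those called with 4 members as scaler, are named since they are 5 or fewer, after their values were seen. The members and lists were chosen with earlier results of these data known. No sequence or genome position is printed, as the files give names alone.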

Additional observations from a re-analysis of the deposited data

Results flagged for a closer look

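The 7 counted members were checked at each month for an animal far from the other 7, by the gap to its nearest neighbour over the range of the group. Of 35 groups of 8 libraries 5 stood out, and chance alone marks about 1 in 20 groups. miR-361-5p at month 9 was low in PA8914, with a log2 CPM of 9.30 against 9.90 in the next animal and 1047 counts. miR-484 at month 9 was low in the same library, with 6.31 against 8.30 and 130 counts. miR-423-3p at month 15 was high in PA8835, with 7.39 against 7.01. Each of the remaining 2 is a library without a count, at the value of 0.080 that the prior count gives. They are miR-361-3p at month 6 in PA8835, where the next animal had 2.52, and miR-328-3p at month 3 in PA8873, where the next had 3.85.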

How the results depend on the processing

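Over the alternatives of scaling, filter, tool, covariates and samples, 337 values stayed within 1.5 times the main count or 1 SD and 32 moved; the cause of a move was not tested unless stated. The month tests called 0 members throughout, leaving out each replicate included. Rows called by them ranged from 0 to 2 at months 3 and 9 and from 0 to 1 at month 6. Between late and early months the range was 0 to 3, for any month 0 to 15 and at month 15 0 to 20. With so few rows called, 0 members is close to rows at large and tells little about the members. The values that stayed include these counts of 0. The baboon term called 5 members and gave 2 with miR-122-5p as a covariate and 2 with no low-count filter. Leaving out 1 baboon at a time gave 1 to 5, with 1 without PA8914. Rows called by it were 103 of 318 in the main fit and 77 of 318 with miR-122-5p as a covariate. They were 118 of 689 with no low-count filter and 50 of 321 without PA8914. The total count slope called 1 member, and 2 with DESeq2, 0 with DESeq2 size factors, 0 with library totals alone, 3 with limma-voom, 2 with no low-count filter, 2 with TMM without miR-122-5p, 2 without the month 9 library of PA8001, 0 without the month 6 library of PA8912 (added after seeing the data), and 0 to 2 with 1 baboon left out; scaling by the members called 1, miR-361-5p (lower) in place of miR-484. Rows called by it were 24 of 318 in the main fit, 45 with DESeq2, 24 with its size factors, 36 with library totals alone and 75 with limma-voom. They were 34 of 689 with no low-count filter, 43 with TMM without miR-122-5p and 61 with scaling by the members. In the last of these settings each member is part of its own scaler. They were 33 of 325 without that library of PA8001, 6 of 326 without that of PA8912, and 4 to 48 with 1 baboon left out. The miR-122-5p slope called 0 members, 1 with library totals alone and 2 without the replicate block, where 13, 32 and 39 of 318 rows were called. Without the replicate block the month and haemolysis index tests called 0 members, the total count slope 1 (miR-103a-3p/miR-107 in place of miR-484), and 2 rows were called at month 15 in place of 13. Rows called at month 15 with members as scalers moved from 1 to 4 with 4 members, and singly to 6 (miR-103a-3p/miR-107), 0 (miR-328-3p), 0 (miR-361-3p), 13 (miR-361-5p), 18 (miR-423-3p), 0 (miR-423-5p) and 0 (miR-484). The SD within a baboon of miR-361-5p was 0.196 and went to 0.334 with library totals alone and to 0.344 scaled by the other members (added after seeing the data), that of miR-103a-3p/miR-107 from 0.269 to 0.396 by the latter, and that of miR-361-3p from 1.34 to 1.96 with a prior count of 0.5.

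Rows called ranged over the alternatives from 0 (only the 2 months compared) to 20 (without PA8915) at month 15, where the main count was 13, and from 0 to 15 for any month (3), 50 to 155 for the baboon term (103), 11 to 39 for the haemolysis index (29), 4 to 75 for the total count (24) and 8 to 39 for miR-122-5p (13). The median log2 fold change of all rows at month 15 was 0.11 with TMM and 0.00090 with DESeq2 size factors, so fold changes of the members are read against that shift. By a rough estimate that leaves out the prior count, counting alone gives an SD of 0.772 for miR-361-3p and 0.347 for miR-328-3p. Their SDs within a baboon were 1.34 and 0.757, and the source of the difference was not tested. No change of miR-345-5p could be measured.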
